A study of Ovis aries with 49 samples.

Results

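The HOXA and HOXD clusters were represented by 4 of the 10273 probe sets in the expression table of lamb adipose tissue. They were found by taking every probe set whose gene symbol in the platform annotation begins with HOXA or HOXD. These were HOXD4 (1552337_s_at), HOXD9 (205604_at), HOXD10 (229400_at) and HOXA11-AS (230666_at), with 1 probe set for each gene. HOXA11-AS is a non-coding antisense RNA of the HOXA cluster, and it was the only transcript of the HOXA cluster carrying a listed symbol. The paper names HOXA5 in a co-expression module of the older lambs that was enriched in perirenal and omental fat. None of the 4 probe sets carries that symbol, so HOXA5 is not covered here. In the sheep gene annotation the symbol HOXA11-AS was not listed, whereas those of the HOXD genes were. The 487 probe sets without a listed symbol were not used here.

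HOX genes encode homeodomain transcription factors that give cells their position along the head to tail axis of the embryo. They lie in 4 clusters, A to D, and within a cluster the genes at the 3′ end are switched on earlier and nearer the head than those at the 5′ end. Genes with the same number in different clusters are paralogues. Fat cells and their progenitors keep part of this positional code after birth, and fat depots are known to differ in the HOX genes they express. HOXD4 belongs to the 3′ side and acts in the hindbrain and neck vertebrae. HOXD9 and HOXD10 belong to the 5′ side and act in the lumbosacral spine and limbs. In the sheep annotation of assembly ARS-UI_Ramb_v3.0 the 3 HOXD genes lie on chromosome 2. By annotated start, HOXD4 comes before HOXD9 and HOXD9 before HOXD10.

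Total RNA of epicardial, omental, perirenal, sternal and subcutaneous adipose tissue of sheep (Ovis aries) was measured on human expression arrays. Lambs were aged 7 or 28 days, and the methods state that the twins of a mother were split between the ages. Of the 49 arrays, 24 came from the younger and 25 from the older lambs. Every combination of depot and age held 5 arrays, but for 4 in subcutaneous fat of the younger lambs. Epicardial fat lies on the heart, omental fat in the abdominal apron, perirenal fat around the kidney, sternal fat at the breastbone and subcutaneous fat under the skin. Strain, sex and maternal diet of the single groups are not given in the labels, and the letter C that every title carries is not explained. The methods describe ewes fed a standard control diet or the same diet with canola oil, but do not mention the letter. Ages were read from the age field and the titles, although the description field gives a different range. The titles number the arrays, and for brevity these numbers appear below as letters that follow their order, from A for the lowest at 7 days to O for the highest at 28 days. A letter recurs between depots, but the labels do not define it as an animal. The methods count 5 animals at each age for all depots, whereas the titles hold 7 numbers at 7 days and 8 at 28 days. The p-values therefore cover only the spread among arrays, which may share lambs or mothers.

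The arrays were alike in overall signal with some exceptions. Array means over all probe sets averaged 3.27 on the log2 scale in sternal fat at 28 days and 3.40 to 3.42 in the other 4 depots of that age. In sternal fat at 28 days 14.2% of values stood at the lowest value of the table, against 10.3% to 10.6% in the other depots. In omental fat the mean was 3.29 at 7 days and 3.42 at 28 days. CKM, a creatine kinase of heart and skeletal muscle, exceeded 4 in 9 epicardial arrays (5 of 5 at 7 days and 4 of 5 at 28 days), in 9 sternal and subcutaneous arrays, of which 3 were sternal arrays at 28 days, and in no omental or perirenal array. In epicardial fat 6 of 7 cardiac muscle markers had a group mean of at least 4 at both ages. Of the 7 adipocyte markers measured, DGAT2, an enzyme of triglyceride synthesis, had a group mean of at least 4 in every group and the other 6 in none. The tissue holds many cell types, and fewer cells of a type and less RNA per cell cannot be told apart in such samples.

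All 4 members had low signals. The table runs from 2.49 to 14 on the log2 scale, with 82.7% of values below 4 and 65.9% below 3, and none of the 4 members reached 4 in any array. HOXD10 and HOXA11-AS lay near the lowest signal in all 10 groups, defined as a highest group mean below 3. Their highest group means were 2.89 (HOXD10, perirenal fat at 7 days) and 2.68 (HOXA11-AS, perirenal fat at 28 days). HOXD4 and HOXD9 were low, with a highest group mean between 3 and 4, namely 3.19 and 3.59, both in perirenal fat at 28 days. A low reading can come from little transcript or from poor pairing of sheep RNA with probes designed for human genes, which cannot be told apart here. Signals of different probe sets are not levels of their transcripts.

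Each member had a low value that recurred in many arrays. The most frequent value was 2.66 for HOXD4 (19 of 49 arrays), 3.22 for HOXD9 (21 arrays), 2.51 for HOXD10 (23 arrays) and 2.49, the lowest value of the whole table, for HOXA11-AS (34 arrays). A reading more than 0.05 log2 units over this value was counted as above it. HOXD4 was above it in 17 arrays, HOXD9 in 13, HOXD10 in 12 and HOXA11-AS in 11. The recurring value was not a floor, since HOXD9 was below it, by any amount, in 14 arrays, HOXD4 in 11, HOXD10 in 9 and HOXA11-AS in 0.

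Readings above the recurring value were unevenly spread over the depots. For the 3 HOXD genes together, perirenal fat had 21 of 30 readings above it and epicardial fat 0 of 30. Subcutaneous fat had 10 of 27, omental fat 8 of 30 and sternal fat 3 of 30. The 3 genes were read on the same arrays, so these readings are not independent replicates of a depot. In perirenal fat at 7 days, arrays A and D each had 3 genes above the recurring value, B 2, C 1 and G 0. HOXA11-AS, not counted here, was above its recurring value in 1 epicardial array at each age, and in 1 perirenal array at 7 days and 3 at 28 days. At least 1 HOXD gene was above its recurring value in 4 of 5 perirenal arrays at 7 days and in 5 of 5 at 28 days. In omental fat the count was 0 of 5 arrays at 7 days and 5 of 5 at 28 days, in subcutaneous fat 2 of 4 and 5 of 5, in sternal fat 1 of 5 and 2 of 5, and in epicardial fat 0 of 5 at both ages. Over all depots 7 of 24 arrays at 7 days and 17 of 25 at 28 days had such a reading.

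These shares were set against the 6399 probe sets whose own most frequent value recurs in at least 19 arrays. Of the readings of these probe sets, 27% in perirenal fat of the younger and 28.6% of the older lambs were above their recurring value, where the HOXD genes had 60% and 80%. In epicardial fat, where the HOXD genes had none, the shares of all such probe sets were 23.5% and 28.1%. In omental fat the background itself moved from 17.6% at 7 days to 31.5% at 28 days, beside a move of the HOXD genes from 0 of 15 readings to 8 of 15. The part of this general shift in the omental readings was not tested. With a limit of 0.2 in place of 0.05 log2 units the order at the top and bottom was the same, with 14 of 30 HOXD readings above in perirenal and 0 of 30 in epicardial fat. At 28 days alone this limit left perirenal fat at 7 of 15 readings, beside 6 of 15 in both omental and subcutaneous fat. Epicardial fat also had 6 of 7 cardiac muscle markers at a group mean of at least 4 at both ages. Subcutaneous fat at 7 days had 4 of these markers at that level and sternal fat at 28 days 3. Of 12 skeletal muscle markers, subcutaneous fat at 7 days had 8 at that level and sternal fat at 28 days 5. Epicardial fat had 3 of them at 7 days and 2 at 28 days. The part of the cardiac and skeletal muscle markers in the HOXD readings was not tested.

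**Figure D1:**
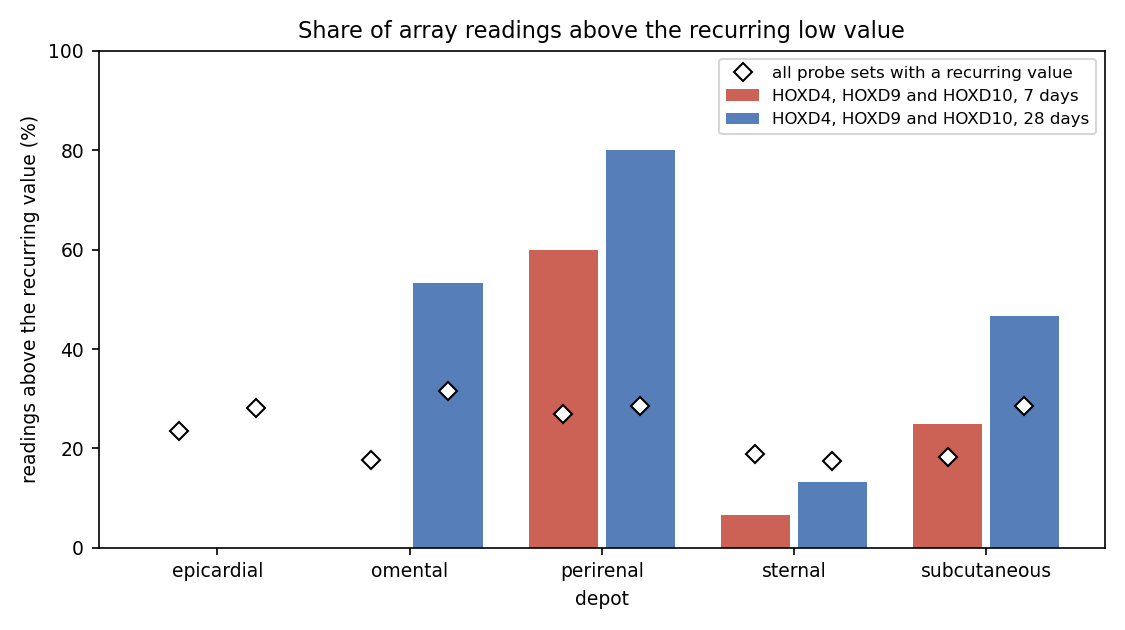
Share of array readings (%) more than 0.05 log2 units above the most frequent value of the probe set, by depot and age. Bars give HOXD4, HOXD9 and HOXD10 together, and open diamonds give the 6399 probe sets with a value that recurs in at least 19 arrays. The bars of perirenal fat reach 60% at 7 days and 80% at 28 days, and epicardial fat has no bar at either age. Readings of the HOXD genes on the same array are not independent.

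HOXD9 gave the clearest difference between depots, at 28 days. In perirenal fat its log2 values were 3.81 (array I), 3.53 (J), 3.30 (K), 3.45 (M) and 3.86 (N), and in sternal fat 3.22 (I), 3.15 (J), 2.82 (M), 2.98 (N) and 3.14 (O). Every perirenal array was above every sternal array, and 4 sternal arrays were below the recurring value of 3.22. Perirenal exceeded sternal fat by 0.53 ± 0.11 (standard error, limma, adjusted p = 0.00263), in a comparison where 13.6% of all probe sets were called at an adjusted p of at most 0.05. An exact permutation test of these 5 against 5 arrays gave p = 0.00794, the smallest it allows, and 0.0266 after adjustment over the 12 such tests run. These 12 tests were chosen after the data had been examined, and they shuffle arrays that may share lambs as if independent.

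In omental fat at 28 days HOXD9 read 3.22 (I), 3.79 (J), 3.28 (M), 3.51 (N) and 3.22 (O). Subcutaneous fat stood at 3.22 in 4 arrays and at 3.46 in array J, and epicardial fat at 3.22 in 4 arrays and at 3.05 in array J. Omental arrays therefore spread from the recurring value up into the perirenal range, while subcutaneous and epicardial arrays hardly left that value.

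The order of the HOXD9 means at 28 days was perirenal (3.59 ± 0.24, SD, n = 5), omental (3.40 ± 0.24), subcutaneous (3.27 ± 0.11), epicardial (3.19 ± 0.08) and sternal fat (3.06 ± 0.16). No neighbours in this order differed at the threshold in limma, with adjusted p from 0.524 for epicardial against sternal to 0.857 for subcutaneous against epicardial fat. Apart from perirenal against sternal fat, only omental against sternal fat passed among the 10 pairs, at 0.34 ± 0.11 (adjusted p = 0.0377). That call was lost after quantile normalization, with a difference of 0.11 (adjusted p = 0.591), and in 6 other alternatives, 4 of which left out 1 array. Of all probe sets 15.7% were called in this pair, and 12.2% and 11.3% for epicardial and subcutaneous against sternal fat. The pairs without sternal fat called 3.07% (epicardial and omental), 2.16% (epicardial and perirenal), 3.02% (epicardial and subcutaneous), 2.87% (omental and perirenal), 2.08% (omental and subcutaneous) and 2.51% (perirenal and subcutaneous). Epicardial minus perirenal fat was -0.40 ± 0.11 (adjusted p = 0.0587), and was called without perirenal array K, omental array J or sternal array M (adjusted p down to 0.0258).

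Across all 5 depots at 28 days HOXD9 passed the F test of limma (adjusted p = 0.00951), as did 20.0% of all probe sets, and the other 3 members did not. Against the mean of the other 4 depots, HOXD9 was higher in perirenal fat by 0.36 ± 0.09 (adjusted p = 0.0216, 3.36% of probe sets called and 2.87% called higher). It was lower in sternal fat, by a difference of -0.30 ± 0.09 (adjusted p = 0.0181, 20.1% called). No other of the 20 tests of a depot against the others passed at this age, with 3.24%, 5.12% and 3.04% of all probe sets called for epicardial, omental and subcutaneous fat. Sternal fat was lower for 18.4% of all probe sets in that comparison, and the median difference over the whole table was -0.07, so the sternal call was made in a depot whose arrays were lower in general. After quantile normalization of the arrays the sternal difference was -0.10 (adjusted p = 0.531) and the perirenal difference 0.30 (adjusted p = 0.0689), so neither passed. The perirenal call was also lost without perirenal array I or N (adjusted p up to 0.0976), and the sternal call without sternal array M or N (up to 0.0797), whereas perirenal against sternal fat was called in all 25 fits that left out 1 array, though not after quantile normalization (0.32, adjusted p = 0.0889).

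At 7 days HOXD9 did not pass in perirenal fat. Its values were 3.33 (A), 3.22 (B), 3.55 (C), 3.42 (D) and 3.22 (G), so 3 of 5 arrays were above the recurring value. In sternal fat none was above it, with 3.22 (B), 3.22 (D), 2.49 (E), 3.17 (F) and 3.14 (G). The highest value of the age, 3.56, was a subcutaneous array (G), whose depot otherwise held 2.96 (A), 3.22 (E) and 3.25 (F). CKM was 11.7 in subcutaneous array G and 12.9 in subcutaneous array A, which read lowest for HOXD9 in that depot. Omental arrays lay between 2.96 and 3.22 and epicardial arrays between 2.79 and 3.22. The perirenal difference from the other depots was 0.21 ± 0.10 (adjusted p = 0.279 from limma), and 0.103 after quantile normalization (adjusted p = 0.767).

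**Figure D2:**
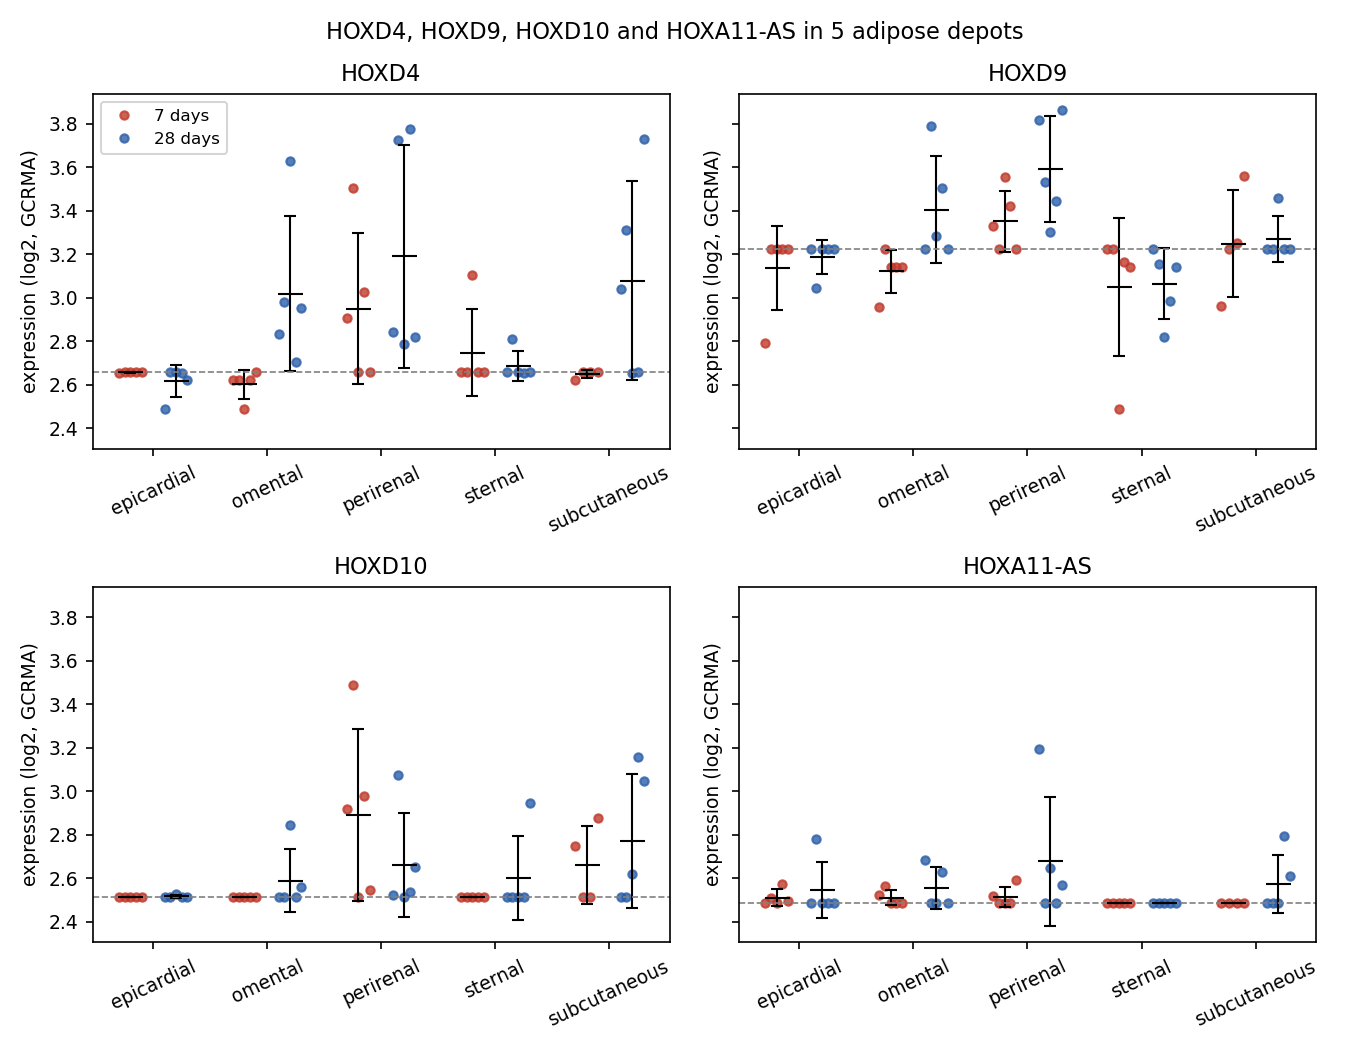
Log2 expression of HOXD4, HOXD9, HOXD10 and HOXA11-AS in each array, by depot and age (red 7 days, blue 28 days). Black marks give the group mean with its SD, and the dashed line is the most frequent value of the probe set. HOXD9 at 28 days runs from 3.30 to 3.86 in perirenal and from 2.82 to 3.22 in sternal fat, and HOXD10 at 7 days leaves the line in perirenal and subcutaneous fat only.

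HOXD10 differed at 7 days. It stood at 2.51, within 0.001, in all 15 epicardial, omental and sternal arrays of that age. Perirenal arrays read 2.92 (A), 3.49 (B), 2.51 (C), 2.98 (D) and 2.55 (G), and subcutaneous arrays 2.75 (A), 2.51 (E), 2.51 (F) and 2.87 (G). The 3 highest values of the age were perirenal, while the other 2 perirenal arrays were below both raised subcutaneous ones, so the groups overlapped. CKM was 12.9 and 11.7 in the raised subcutaneous arrays A and G, and 6.35 and 2.77 in E and F. The part of muscle RNA in the raised subcutaneous readings was not tested.

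Perirenal fat exceeded the mean of the other depots in HOXD10 by 0.34 ± 0.09 (adjusted p = 0.0425 from limma), the only one of 20 such member tests that passed at 7 days. In this comparison 5.11% of all probe sets were called and 4.58% were called higher, while epicardial, omental, sternal and subcutaneous fat against the others gave 4.07%, 1.54%, 1.20% and 1.53%. The exact permutation test gave p = 0.00214, or 0.0128 adjusted over the same 12 tests, which were chosen after the data had been examined. With 3 groups almost without spread, the common error of the fit is smaller than the spread of perirenal fat itself (SD 0.39). The call was lost in 20 of the 24 fits that left out 1 array, with differences from 0.19 to 0.43 and adjusted p up to 0.128, the lowest difference without perirenal array B. It was also lost after quantile normalization (0.30, adjusted p = 0.10) and with the number in the titles as a block (0.28, adjusted p = 0.121).

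At 28 days HOXD10 was not set apart in perirenal fat. Perirenal arrays read 2.52 (I), 3.07 (J), 2.51 (K), 2.54 (M) and 2.65 (N). The highest values of the age were subcutaneous, at 3.16 (M) and 3.05 (N) beside 2.62 (J), 2.51 (H) and 2.51 (I), together with perirenal array J. Omental fat had 1 raised array (M, 2.85) and sternal fat 1 (O, 2.94), and epicardial fat stayed between 2.51 and 2.53. CKM was 11.3 in sternal array O, and 12.7 in sternal array J, where HOXD10 was not raised. It was 4.11 and 2.73 in subcutaneous arrays M and N. The perirenal difference in HOXD10 was 0.04 (95% interval of -0.16 to 0.25, adjusted p = 0.894 from limma) and that of subcutaneous fat 0.18 (-0.03 to 0.38, adjusted p = 0.507).

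HOXD4, the member from the 3′ side of the cluster, had the largest SD of the 4 members in perirenal, omental and subcutaneous fat at 28 days. At 28 days perirenal arrays read 2.84 (I), 3.72 (J), 2.79 (K), 3.77 (M) and 2.82 (N), all above the recurring value of 2.66. Omental arrays read 2.83 (I), 2.98 (J), 3.63 (M), 2.70 (N) and 2.95 (O). Subcutaneous arrays read 3.04 (H), 3.31 (I), 2.65 (J), 2.66 (M) and 3.73 (N). In these 3 depots 1 or 2 arrays per group stood above 3.6 and the others well below, and the groups overlapped throughout.

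Sternal fat at 28 days held HOXD4 at 2.65 to 2.66 except in array J (2.81), and epicardial fat at 2.49 to 2.66, so no epicardial array reached the lowest perirenal one. CKM was 12.7 in sternal array J, and 11.3 in sternal array O, where HOXD4 was not raised. The HOXD4 means were 3.19 ± 0.51 (SD, n = 5) in perirenal, 3.08 ± 0.46 in subcutaneous, 3.02 ± 0.36 in omental, 2.69 ± 0.07 in sternal and 2.62 ± 0.07 in epicardial fat. The difference of perirenal fat from the other depots was 0.34 ± 0.17 and was not called (adjusted p = 0.397 from limma). It was 0.19 without perirenal array M and 0.21 without J. The largest difference between a pair of depots, epicardial minus perirenal, was -0.57 ± 0.21 (adjusted p = 0.219).

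At 7 days HOXD4 left its recurring value in 3 perirenal arrays, at 2.91 (A), 3.50 (B) and 3.02 (D), and in sternal array E at 3.11. The remaining perirenal arrays (C and G) stood at 2.66, and every epicardial, omental and subcutaneous array lay between 2.49 and 2.66. The 3 raised perirenal arrays were the same 3 that held the highest HOXD10 values of that age. The difference of perirenal fat from the other depots was 0.29 ± 0.09 (adjusted p = 0.0723 from limma), which misses the threshold. Without perirenal array B it was 0.15 (adjusted p = 0.265), and without perirenal array C or G it was 0.36 and called (adjusted p down to 0.0317). An exact permutation test on HOXD4 alone gave p = 0.0110, or 0.0266 after adjustment over the 12 tests. Those tests were chosen after the data had been examined, so this value does not make HOXD4 a call.

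HOXA11-AS left the lowest value of the table in few arrays and by little. In sternal fat all 10 arrays of both ages stood at 2.49, as did all 4 subcutaneous arrays at 7 days. At 28 days perirenal arrays read 3.20 (I), 2.49 (J), 2.65 (K), 2.49 (M) and 2.57 (N), and the next highest readings were a subcutaneous array (M, 2.79) and an epicardial one (J, 2.78). At 7 days no array exceeded 2.59. None of its tests passed, and the perirenal difference at 28 days was 0.14 (95% interval of -0.03 to 0.30, adjusted p = 0.533 from limma), or 0.0076 without perirenal array I.

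No change with age was called for any member in any depot, in 20 tests of which 4 had an unadjusted p below 0.05 in limma. Of all probe sets 5.84% changed with age in epicardial, 14.6% in omental, 9.32% in perirenal, 6.37% in sternal and 9.25% in subcutaneous fat. The largest differences of 28 minus 7 days were 0.43 (95% interval of 0.06 to 0.80, adjusted p = 0.147) and 0.42 (0.07 to 0.77, adjusted p = 0.103) for HOXD4 in subcutaneous and omental fat. The former was 0.27 without subcutaneous array N at 28 days, and the latter 0.26 without omental array M. Without the arrays in which CKM exceeded 4, the HOXD4 difference in subcutaneous fat was 0.70, with only array F left at 7 days. HOXD9 in omental fat differed by 0.28 (0.04 to 0.53, adjusted p = 0.115), where the groups touched at the recurring value. It was 0.19 without omental array J at 28 days and 0.057 after quantile normalization (adjusted p = 0.925). The difference of HOXD10 in perirenal fat was negative, at -0.23 (-0.48 to 0.02, adjusted p = 0.324), and ran from -0.33 without perirenal array J at 28 days to -0.079 without perirenal array B at 7 days.

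The interaction of depot and age was called for none of the 4 members by limma (lowest adjusted p = 0.376, with 0 at an unadjusted p below 0.05), while 9.17% of all probe sets were called. The call of HOXD10 at 7 days and that of HOXD9 at 28 days are therefore not shown to be differences between the ages. At 7 days the F test over depots called 0 of 4 members (2 at an unadjusted p below 0.05) and 8.16% of all probe sets, and 0 of 40 tests of pairs passed (7 at an unadjusted p below 0.05). Of all probe sets 2.37% (epicardial), 5.00% (omental), 1.85% (sternal) and 4.15% (subcutaneous) were called against perirenal fat at that age. Epicardial fat gave 4.18% against omental, 3.93% against sternal and 2.42% against subcutaneous fat, omental fat 0.701% against sternal and 0.204% against subcutaneous fat, and sternal against subcutaneous fat 1.21%.

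The other HOX clusters were counted in the same comparisons. In perirenal fat against the other depots at 28 days, 6 of 8 HOXB coding genes and 3 of 5 HOXC genes were higher, beside 1 of 3 HOXD genes and 2.87% of all probe sets, and none was lower. At 7 days the counts were 2 of 8, 2 of 5 and 1 of 3, beside 4.58% of all probe sets. The median difference of the HOXD genes was 0.29 at 7 days and 0.34 at 28 days, that of HOXB 0.24 and 0.70, and that of HOXC 0.32 and 0.40, where all probe sets had medians of 0.02 and 0.00. The largest differences at 28 days were 2.18 ± 0.25 for HOXB6 and 1.42 ± 0.34 for HOXB8 in cluster B, and 1.92 ± 0.12 for HOXC6 and 0.40 ± 0.09 for HOXC10 in cluster C. The differences of HOXB6 and HOXB8 did not set perirenal apart from omental fat. The HOXB6 mean at 28 days was 6.67 in both depots. That of HOXB8 in omental fat was below the perirenal mean and above those of the remaining depots. For HOXC6 and HOXC10 the perirenal mean was the highest of all depots. After quantile normalization the counts at 28 days were again 6 of 8 and 3 of 5 for HOXB and HOXC, and 0 of 3 for HOXD, and at 7 days they were 2, 2 and 0, beside 1.95% and 1.87% of all probe sets called higher. In signal, 6 of 10 HOXB probe sets and 2 of 5 HOXC probe sets had a group mean of at least 4, and none of the HOXD probe sets had one.

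**Figure D3:**
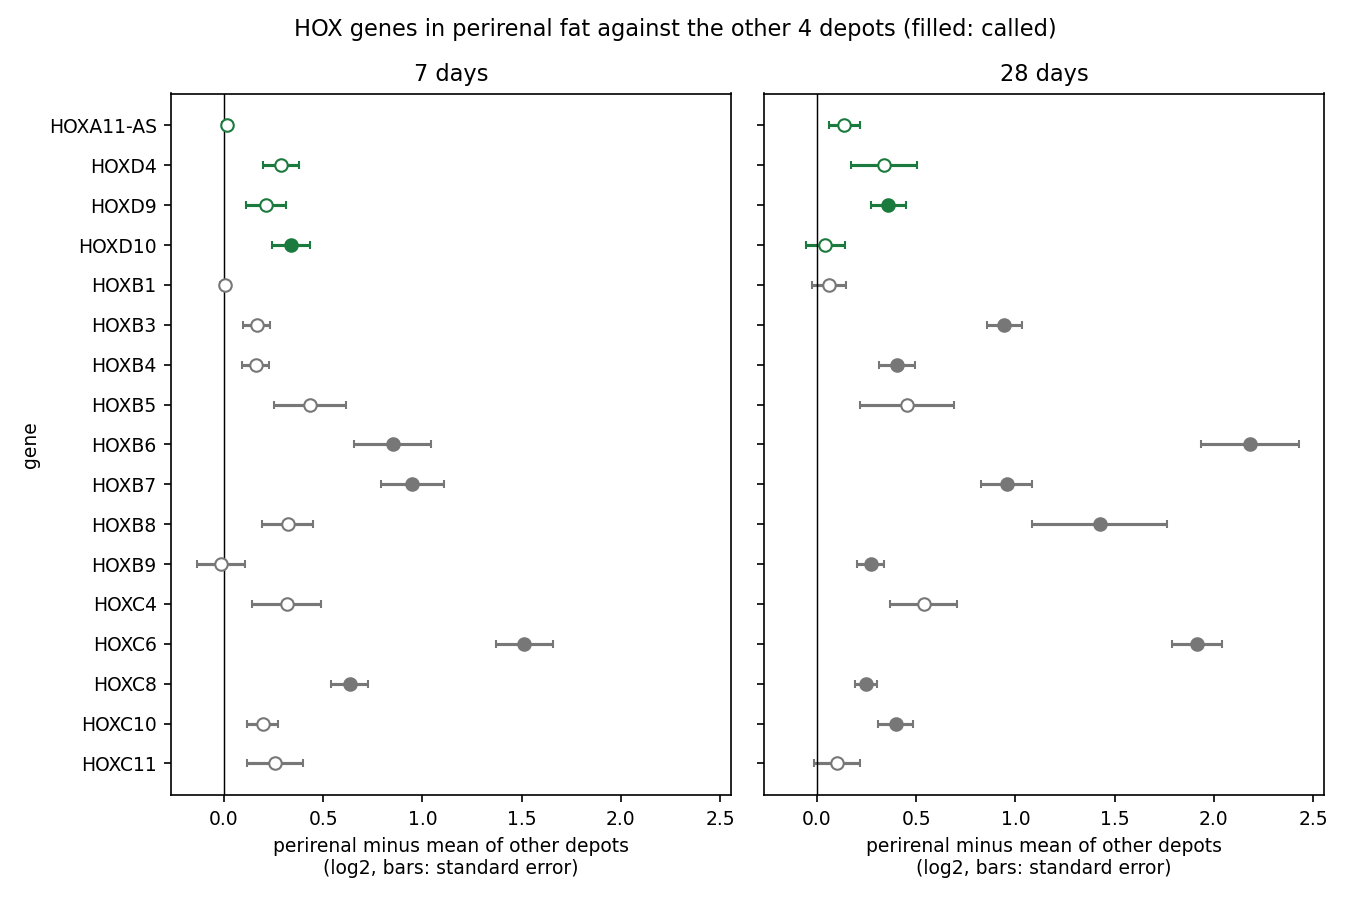
Difference in log2 expression between perirenal fat and the mean of the other 4 depots at 7 days (left) and 28 days (right) for the coding HOX genes and HOXA11-AS, with standard errors. Green marks HOXA11-AS and the HOXD genes, grey the HOXB and HOXC genes, and filled symbols an adjusted p of at most 0.05. HOXD10 (0.34) is filled at 7 days and HOXD9 (0.36) at 28 days, while HOXB6 (2.18) and HOXC6 (1.92) lie farthest right at 28 days.

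The paralogues of the members on the other clusters, named because of the member they match, gave these perirenal differences at 28 days. HOXB4 differed by 0.40 ± 0.09 (adjusted p = 0.0147) and HOXC4 by 0.54 ± 0.17 (adjusted p = 0.0870), beside 0.34 for HOXD4. HOXB9 differed by 0.27 ± 0.07 (adjusted p = 0.0264 from limma), beside 0.36 for HOXD9. HOXC10 differed by 0.40 (adjusted p = 0.0119), beside 0.04 for HOXD10. All these values were positive, and those of HOXB4, HOXB9 and HOXC10 passed, as did that of HOXD9. After quantile normalization HOXB4 (adjusted p = 0.0426 from limma), HOXB9 (0.0352) and HOXC10 (0.0225) still passed, whereas HOXD9 did not. The HOXC4 mean at 28 days was higher in omental (7.48) than in perirenal fat (7.20). No group mean of HOXB9 exceeded 2.79. At 7 days the perirenal mean was the highest of all depots for HOXB4 (3.48) and HOXC10 (2.96), but not for HOXC4 or HOXB9. That of HOXB9 was 2.59, below omental (2.71) and subcutaneous fat (2.66) and above sternal (2.57) and epicardial fat (2.50). The paralogues were added after their values were seen.

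The TALE homeodomain proteins of the MEIS, PBX and PKNOX families bind DNA together with HOX proteins. Of 9 measured members of this family and its partners, 0 were called in perirenal fat against the other depots at either age, and 5 were lower in sternal fat at 28 days, where 18.4% of all probe sets were lower. After quantile normalization 2 of the 9 were lower in sternal fat, the difference of PBX2, one of the 5, turned to 0.02, and MEIS2 was called lower in perirenal fat at 28 days (-0.43, adjusted p = 0.0337 from limma). The difference was -1.72 ± 0.19 for MEIS1 and -1.26 ± 0.12 for MEIS2, or -1.38 and -0.96 after quantile normalization, in the depot where HOXD9 was lowest as well. In omental fat at 28 days MEIS1 was higher than in the other depots by 2.08 and MEIS2 by 1.19. In perirenal fat, where 4.58% of all probe sets were higher and 0.535% lower at 7 days, and 2.87% and 0.487% at 28 days, the other lists gave these counts. Of 22 Polycomb genes, which keep HOX clusters silent, 1 was lower at 7 days and 1 higher at 28 days, and of 13 Trithorax genes and demethylases, which keep them active, 1 was higher at each age. Of 14 genes of the retinoic acid pathway, which switches on 3′ HOX genes in the embryo, 2 were higher at 7 days and 0 at 28 days. After quantile normalization the Polycomb list had 0 calls at 7 days and 1 in each direction at 28 days, the Trithorax list 1 in each direction at 7 days and 1 higher at 28 days, and the retinoic acid list 0 at both ages.

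Perirenal fat adjoins the kidney and adrenal gland, and markers of both organs were checked. Of the 5 kidney markers measured, none had a group mean of 4 in any depot, and the log2 of their summed level was 5.16 to 5.44 in perirenal arrays at 7 days and 5.19 to 5.31 at 28 days, within the range of the other depots (5.09 to 5.52). Of the 3 adrenal markers measured, none had a group mean of 4 either, with 4.39 to 4.67 and 4.34 to 4.53 in perirenal fat at 7 and 28 days, and 4.14 to 4.80 in the other depots. At 7 days every perirenal array was above the sternal (4.17 to 4.21) and subcutaneous arrays (4.17 to 4.19) in this sum, and CHGA, a protein of chromaffin granules, had its highest group mean, 2.67, in perirenal fat. The part of the adrenal markers in the results was not tested. The 7 cardiac markers and CKM, with 10.2, had their highest group mean in epicardial fat at 7 days, and the other 11 skeletal muscle markers in sternal or subcutaneous fat. Leaving out the 9 sternal and subcutaneous arrays in which CKM exceeded 4 left only arrays I and M of sternal fat at 28 days. Of subcutaneous fat at 7 days it left only array F. HOXD9 in perirenal against sternal fat at 28 days was then 0.57 (adjusted p = 0.0368 from limma). The perirenal difference of HOXD9 from the other depots was 0.38 (adjusted p = 0.0574), so that call was lost while the difference was as large. The same held for HOXD9 in sternal fat against the other depots (-0.33, adjusted p = 0.164) and in omental minus sternal fat (0.38, adjusted p = 0.143). The perirenal difference of HOXD10 at 7 days was 0.37, with both raised subcutaneous arrays left out. So few arrays limit what these fits can show.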

How the data were processed

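RNA of 5 lamb fat depots at 7 and 28 days was measured on Affymetrix Human Genome U133 Plus 2 arrays. The authors used GCRMA from the affy package, which corrects background, normalizes and summarises, and deposited log2 values of 10273 probe sets in 49 arrays. The sources used here give no tool versions. In the annotation 9780 probe sets carried 1 symbol, 6 several and 487 none, and genes were named only from probe sets with 1. Groups were depot by age, from the labels. No 2 arrays correlated above 0.990, so none was taken as a repeat.

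All probe sets were fitted with limma 3.58.1 in R 4.3.3, with 1 model per age over the 5 depots and 1 model of all 10 groups for changes with age and the interaction. The p-values were adjusted by Benjamini-Hochberg within each comparison over all probe sets and called at 0.05 or less. The code was tested on simulated independent normal values with shifts of 1 or 2 log2 units. That check does not cover tied low values or differences as small as those of the members. Differences are on the log2 scale with their standard error. The members and gene lists were chosen with earlier results of these data known. From each other gene list at most the 2 called genes with the largest difference were named, and paralogues of the members were added after their values were seen. A search for the genes most like each member needed a group mean of at least 4, which no member had. The counts above the most frequent value and the exact two-sided permutation tests were added after the data had been examined. Alternatives were quantile normalization, the replicate number as a block, moderation with trend, a filter on means below 4, fits of only the 2 groups compared, leaving out arrays with muscle RNA and leaving out each array. The number of arrays limits the precision. No sequences were used here.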

Additional observations from a re-analysis of the deposited data

Results flagged for a closer look

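In 18 of 34 groups of 4 or 5 arrays, 1 array of a member lay apart from the rest of its group by more than the 95% limit for a single outlying value (6 more groups spanned less than 0.001 and were not examined). Chance gives about 1 in 20 groups, and a group with all arrays but 1 on the recurring value meets this limit by construction. Of the cases, 8 of the cases were at 7 days and 10 at 28 days. No test was made of why an array stood apart.

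For HOXD4 the arrays above their group were 3.11 (sternal at 7 days, array E) and 2.81 (sternal at 28 days, J). Those below it were 2.65 (epicardial at 7 days, A), 2.49 (omental at 7 days, D), 2.62 (subcutaneous at 7 days, A) and 2.49 (epicardial at 28 days, I). For HOXD9 the low arrays were 2.79 (epicardial at 7 days, A), 2.49 (sternal at 7 days, E) and 3.05 (epicardial at 28 days, J), and 1 array was high, at 3.46 (subcutaneous at 28 days, J).

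For HOXD10 the high arrays were all at 28 days, namely 2.85 (omental, M), 3.07 (perirenal, J), 2.94 (sternal, O) and 2.53 (epicardial, L). For HOXA11-AS they were 2.58 (epicardial, E) and 2.59 (perirenal, G) at 7 days, and 2.78 (epicardial, J) and 3.20 (perirenal, I) at 28 days. Sternal array E at 7 days was high for HOXD4 and at the lowest value of the table for HOXD9.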

How the results depend on the processing

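All members lie at or near the lowest signal, which limits what the sizes given here can show. With the filter on a mean of at least 4, 0 of 4 members remained, so that setting gave no values. After quantile normalization the calls fell to 0 for each depot against the others at 7 days, to 0 at 28 days, to 0 in the F test at 28 days and to 0 for pairs of depots at 28 days, with HOXD9 in perirenal minus sternal fat at 0.32 (adjusted p = 0.0889 from limma). Leaving out the 9 muscle-rich arrays (CKM over 4) of sternal and subcutaneous fat, the counts at 28 days were 0, 0 and 1, in the same order. Only array F of subcutaneous fat at 7 days was then left, so no count is given for that age. With only the 2 groups compared in the fit, 1 pair was called at 28 days. Moderation with trend changed no count. Leaving out 1 array gave 0 to 2 calls for depots against the others at 7 days and 1 to 2 at 28 days, 0 to 4 for pairs at 7 days and 1 to 3 at 28 days, 0 to 1 in the F test at 7 days and 1 at 28 days, and 0 for age and the interaction. The 4 pairs at 7 days appeared without perirenal array G or C, and HOXD4 in perirenal fat at 7 days was called without either of them or sternal array E. HOXD9 in omental minus sternal fat at 28 days lost its call without omental array J or N or sternal array M or N. HOXD10 in perirenal fat at 28 days turned from 0.04 to -0.063 without perirenal array J, and ran up to 0.077 when other arrays were left out. The cause of these changes was not tested.

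The numbers in the titles recur between depots, but the labels do not define them as animals, although the methods describe depots that share animals. Deviations from the group means of arrays with the same number correlated by a median of 0.05 at 7 days (-0.26 to 0.16, 33 pairs) and 0.06 at 28 days (-0.08 to 0.32, 39 pairs). Pairs of arrays with different numbers had a median of -0.01 at both ages. Of the pairs with the same number, 6 of 33 at 7 days and 12 of 39 at 28 days correlated above 0.1. With the replicate number as a block, 0 calls were left for depots against the others at 7 days, with HOXD10 in perirenal fat at 0.28 (adjusted p = 0.121), and the other 5 counts within an age stayed as they were. No number occurs at both ages, so the block could not be fitted for changes with age.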
